A study of Mus musculus with 24 samples.

Results

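Microvascular endothelial cells (MECs) of the diabetic heart were compared with those of the diabetic kidney, to ask how far the organs still differ in diabetes. The comparison rests on 6 of the 24 regions of the series, 3 of the heart (carMECs) and 3 of the kidney (renMECs), chosen by their sample titles and all collected on 1 plate. Male C57BL/6J mice received streptozotocin, a toxin of the cells that make insulin, at 50 mg/kg on each of 5 days from 8 weeks of age, and tissue was taken 2 months later. As a reference for the size of the organ difference, 3 renMEC and 3 carMEC regions of mice of the same strain, sex and age that received citrate buffer were analysed in the same way. No region is used in both conditions. Sections were formalin-fixed and paraffin-embedded, hybridised with GeoMx Mouse Whole Transcriptome Atlas probes, and stained for CD31, an adhesion molecule of the endothelium, with regions drawn over small vessels and not over large ones. Probe barcodes were released from each region by ultraviolet light and counted by sequencing.

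Capillaries are built to suit their organ. Glomerular and peritubular capillaries of the kidney are fenestrated and serve filtration and reabsorption, while capillaries of the heart have a continuous endothelium, lie closely along cardiomyocytes and carry fatty acids to the muscle. A region of a section can also collect transcripts of the cells that touch the vessel, such as tubule cells in the kidney and cardiomyocytes in the heart. Fewer cells of a type and less RNA per cell cannot be told apart in such counts.

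Every measurement below is that of a probe, given by its identifier. The lists hold no gene symbols, and 0 of the probe identifiers matched the gene table used here, so the endothelial identity of the regions could not be checked against its markers and no gene or sequence is named. Of the diabetic heart regions, only region 1 is labelled as MECs, whereas the labels of regions 2 and 3 name the heart alone. Across the 3762 probes tested, at an equal number of counts per region, the log2 values of the 3 diabetic heart regions correlated with each other at 0.722 to 0.739. Those of the 3 diabetic kidney regions correlated at 0.699 to 0.759, and regions of different organs at 0.307 to 0.394, as a description across probes that share their libraries.

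Depth differed with the organ. The diabetic heart regions held 153319, 119636 and 115269 counts and the diabetic kidney regions 356967, 217736 and 333862. The 75th percentile of the counts of a region, by which counts were scaled, was 8, 6 and 6 counts in the heart and 16, 10 and 15 in the kidney, so a scaling step of 1 count is large in the heart. Diabetic heart region 2 also had 79.37% of its reads aligned, against 96.05% to 96.74% in the other 11 heart and kidney regions. Each group had 3 mice, and nothing in the labels says which mouse gave which region, so heart and kidney regions may come from the same mice. The p-values then measure the spread between regions and do not account for a shared mouse.

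The probes with the smallest p in the heart direction were over 100-fold higher there than in the kidney. Probe RTS0071426 had 1108.76, 1315.59 and 992.34 scaled counts in diabetic heart regions 1 to 3 and 9.32, 10.85 and 8.14 in the diabetic kidney regions. The heart values rest on 654, 582 and 439 counts and the kidney values on 11, 8 and 9. Every heart region lay far above every kidney region, with means of 1140 ± 164 and 9.44 ± 1.36 (SD, n = 3). The difference was 6.91 on the log2 scale (standard error 0.24), or 120-fold, with an adjusted p of 3.36e-16 from edgeR's quasi-likelihood test. Probe RTS0070622 had 1357.97, 1543.89 and 1039.81 scaled counts in the heart and 7.63, 16.28 and 12.66 in the kidney. Its log2 difference was 6.77 (standard error 0.27), or 109-fold, with an adjusted p of 3.81e-15 from edgeR. For both probes, diabetic heart region 3 had the lowest of the heart values. The median count of a probe was 10, 6 and 10 in the diabetic kidney regions, so the kidney counts of these probes are at the level of a median probe. Background probes were not used here and the level of background was not assessed, so these folds are ratios of counts and not of expression above background.

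In the other direction, probe RTS0061890 had 378.06, 674.07 and 571.44 scaled counts in the diabetic kidney regions and 13.56, 11.3 and 9.04 in the heart. The heart values come from 8, 5 and 4 counts, where the median probe had 5, 4 and 4, so the fold rests on a small denominator. The log2 difference was -5.54 (standard error 0.28), 46.5-fold higher in the kidney, with an adjusted p of 3.85e-13 from edgeR. Probe RTS0062532 had 357.72, 279.39 and 326.41 scaled counts in the kidney and 28.82, 33.91 and 22.6 in the heart. Its log2 difference was -3.49 (standard error 0.24), 11.2-fold higher in the kidney, with an adjusted p of 8.99e-11 from edgeR. The groups did not overlap for either probe, and the kidney regions spread more for RTS0061890 (541 ± 150) than for RTS0062532 (321 ± 39.4; SD, n = 3). These 4 probes have the smallest p in each direction, so their sizes are those of the extremes. By the methods' t-test with Benjamini-Hochberg adjustment none of the 4 passed in diabetes (adjusted p 0.0834 to 0.193).

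All 4 probes had the same direction without diabetes. RTS0071426 and RTS0070622 were 154-fold and 175-fold higher in non-diabetic heart than kidney regions, and RTS0061890 and RTS0062532 were 98.3-fold and 8.74-fold higher in the kidney. In the kidney RTS0061890 averaged 541 scaled counts with diabetes and 992 ± 134 without it (SD, n = 3), and its log2 organ difference changed by 1.06. For none of the 4 probes did the change of the organ difference pass the threshold, with adjusted p of 0.444 to 0.804 from edgeR's interaction contrast.

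**Figure D1:**
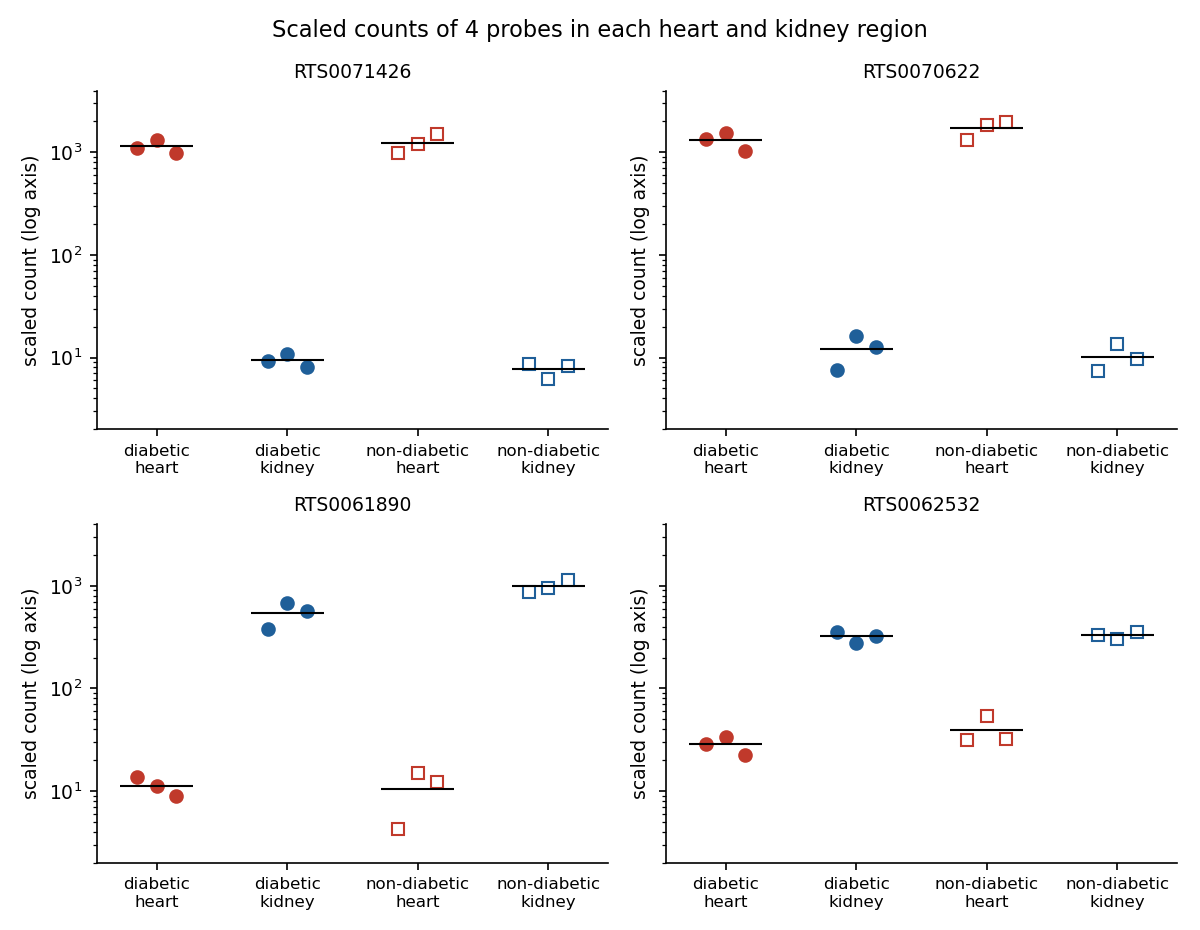
Scaled counts (log axis) of the 4 named probes in each of the 12 heart and kidney regions, 1 point per region, with the mean of each group as a line. RTS0071426 and RTS0070622 are at 985.08 to 1973.09 in the heart regions and 6.16 to 16.28 in the kidney regions. RTS0061890 is at 378.06 to 1137.99 in the kidney and 4.28 to 14.92 in the heart regions. RTS0062532 is at 279.39 to 357.72 in the kidney and 22.6 to 54.25 in the heart regions.

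Across the transcriptome, 944 of 3762 probes tested (25.1%) differed between diabetic heart and kidney regions at an adjusted p under 0.05 by edgeR's quasi-likelihood test. The kidney held the larger part. In the kidney 751 probes (20% of those tested) were higher, with a median log2 difference of -1.46, and in the heart 193 (5.13%), with a median of 1.72. The kidney share of the calls varied with the scaling and with the filter on low counts. The median over the 3762 probes that passed this filter was -0.39 at the 75th percentile. Without the filter it was -0.04 over 20185 probes, with 194 called higher in the heart and 596 in the kidney. With total counts 248 probes were higher in the heart and 520 in the kidney (32.3% heart, median over the probes tested -0.21). With TMM they numbered 200 and 653, and with DESeq2's size factors 201 and 620. The kidney had the larger count under each of these scalings. Without heart regions 2 and 3, whose labels do not name MECs, 430 of 12985 probes were called, 116 higher in the heart and 314 in the kidney, with the lone heart region assumed to vary like the kidney regions.

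Large differences were fewer and more even between the organs. More than 4-fold differences were called for 68 probes higher in the heart and 175 higher in the kidney, and more than 16-fold differences for 18 and 19. Among the calls 102 were under 2-fold, and the smallest was 0.57 on the log2 scale. The 3 heart regions lay wholly above or below the 3 kidney regions for 1491 of the probes tested (39.6%), of which 1176 were higher in the kidney, and 915 of the 944 called probes were of this kind. The biological coefficient of variation between regions was 21.1% and the median standard error of a log2 difference 0.36.

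The share of probes called was larger among abundant probes. Of the 78 probes with a mean of at least 100 scaled counts over the 6 regions, all were tested and 51 were called (65.4%), 20 higher in the heart and 31 in the kidney. The share called was 47% of the 166 tested probes from 50 to 100, 46.7% of the 632 from 20 to 50, and 19.3% of the 2435 from 10 to 20. Below 10 scaled counts lay 16605 of the probes, of which 451 passed the filter on low counts and 50 were called. Most probes of the panel were thus left out of this fit by the filter on low counts.

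The called probes made up a sizeable part of the transcripts. The 193 heart probes held 7.561%, 8.367% and 7.038% of the counts of the diabetic heart regions and 1.413%, 1.333% and 1.328% of those of the diabetic kidney regions. The 751 kidney probes held 21.677%, 23.114% and 22.714% in the kidney and 10.41%, 10.113% and 10.122% in the heart. These shares describe lists chosen on the same regions. In the non-diabetic regions, which did not choose them, the heart probes held 7.74% ± 0.98 of the heart and 1.47% ± 0.03 of the kidney counts, and the kidney probes 24.2% ± 0.35 of the kidney and 9.25% ± 0.36 of the heart counts (SD, n = 3).

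Nearly every probe was listed in every region, 18899 of 20185 in all 6, so presence and absence could separate the organs only for a few. With probes counted as present in an organ when their counts over its 3 regions summed to at least 10, and as missing in the other at a sum of 0, 0 probes were found in the diabetic heart only and 1 in the diabetic kidney only, with a sum of 18 counts. The kidney sum of all probes is 908565 counts and the heart sum 388224. At an equal number of counts per region the numbers were 4 for the heart and 0 for the kidney, and with a sum of at least 20 required both were 0. A sum of 0 allows up to 3 counts by counting error alone.

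Among the most abundant probes the organs overlapped in part. Of the 10 probes with the highest mean in the diabetic heart, 6 were also among the 10 highest in the diabetic kidney, 40 of the highest 100 were shared, and 588 of the highest 1000. The same organ in the other condition shared more, with 82 of 100 for diabetic and non-diabetic heart and 77 of 100 for diabetic and non-diabetic kidney. Without diabetes heart and kidney shared 33 of 100. The 10 leading heart probes took 10.5% ± 0.59 of the counts in the heart and 10.1% ± 0.48 in the kidney, and 4 of them were over 4-fold higher in the heart. The 10 leading kidney probes took 12.3% ± 0.6 in the kidney and 9.26% ± 0.44 in the heart (SD, n = 3), and 2 were over 4-fold higher in the kidney.

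Some of the largest differences were uneven among regions of the same organ and did not pass the test. Of the probes tested, 12 differed over 4-fold with an adjusted p above 0.05 from edgeR, 5 higher in the heart and 7 higher in the kidney. All 5 heart probes were highest in diabetic heart region 2 and lowest in region 3, with the highest value 28.5 to 69.6 times the lowest. The one with the largest difference had 191.6, 1331 and 22.6 scaled counts in heart regions 1 to 3 against 5.934, 9.494 and 29.84 in the kidney regions, an unequal set in which the organs overlap. Its log2 difference was 5.05 with a standard error of 1.82 and an adjusted p of 0.127 from edgeR. The other 4 had 81.38 to 142.4 scaled counts in heart region 1, 515.4 to 797.9 in region 2 and 11.3 to 22.6 in region 3, so the same order of regions recurred in each. In the non-diabetic regions 0 of the 5 were called, with log2 differences of -0.32 to 0.84, and in the heart they were there highest in region 1. Region 2 is the region with the low share of aligned reads, and its label does not name MECs. The part of either in these 5 probes was not tested.

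On the kidney side, 6 of the 7 probes were called without diabetes. The largest of all kidney differences was among them. This probe had 4792, 302.4 and 3573 scaled counts in diabetic kidney regions 1 to 3 and 84.77, 6.781 and 13.56 in the heart, so the organs did not overlap although kidney region 2 held far less than the other kidney regions. Its log2 difference was -6.29 with a standard error of 1.65 and an adjusted p of 0.0618 from edgeR. In non-diabetic kidney regions it stood at 17560, 9552 and 16550 scaled counts and in the non-diabetic heart at 21.41, 18.99 and 33.61, a log2 difference of -9.15 with an adjusted p of 8.93e-35 from edgeR. Of the other 6 probes, 5 were highest in diabetic kidney region 2, such as one with 33.91, 386.5 and 68.72 scaled counts in kidney regions 1 to 3. Among these 7 probes kidney region 2 was the lowest of the diabetic kidney regions for 2 and the highest for 5.

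As whole profiles, how far the diabetic organs lay apart depended on the scale. On linear scaled counts, diabetic heart and kidney regions lay 8466 scaled counts apart on average (Euclidean distance, range over 9 pairs 7281 to 9859), against 2692 among the heart and 6146 among the kidney regions. The ratio of the mean distance between organs to that within them was 1.92, the highest of the 10 ways to divide the 6 regions into 3 and 3. The exact permutation p was 0.1 (one-sided), the smallest that 10 divisions allow, so this design could not pass 0.05. The nearest neighbour was a region of the same organ for 6 of 6 regions. On log2(scaled count + 1), where low probes weigh more, the ratio was 1.16 and the nearest neighbour of the same organ for 5 of 6. There the heart regions lay farther from each other (150.6) than from the kidney regions (148.3), while the kidney regions lay 105 apart. By 1 minus the Spearman correlation the ratio was 1.18 and the nearest neighbour of the same organ for 3 of 6, with 0.655 within the heart, 0.394 within the kidney and 0.62 between the organs. At equal depth on the log2 scale the ratio was 1.12 and the nearest neighbour of the same organ for 6 of 6, with 126.8 within the heart, 137.4 within the kidney and 147.7 between them.

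A few probes carried the linear distance. A single probe, the most abundant of all, made up 52.2% of the squared distance between the mean diabetic heart and kidney profiles, and 10 probes made up 86.0%, 6 higher in the heart and 4 in the kidney. The single probe had 14150, 15730 and 18290 scaled counts in the kidney and 10420, 11320 and 10040 in the heart, which is 4.68% to 6.06% and 3.85% to 4.19% of all counts. Its difference between the organs is thus modest as a ratio and large as a number of counts. Without it the ratio of distances was 1.6. In the non-diabetic regions another probe led, with 66.6% of the squared distance, namely the kidney probe described above at 17560, 9552 and 16550 scaled counts. The non-diabetic ratio of distances was not computed without that probe.

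Without diabetes the organs lay farther apart on linear counts. The mean distance was 18260 scaled counts between non-diabetic heart and kidney regions (11860 to 23440), 3751 within the heart and 9082 within the kidney, a ratio of 2.85. With each region left out in turn it was 2.23 to 5.04 (5.04 without non-diabetic kidney region 2), which overlaps the 1.56 to 2.64 of the diabetic ratio. With all regions the ratio was higher without than with diabetes on every scale computed, at 1.56 against 1.16 on the log2 scale, 1.39 against 1.18 by rank correlation, and 3.41 against 1.76 at equal depth. The mean distance between the organs was itself larger in diabetes on the log2 scale (148.3 against 135.4) and by rank correlation (0.62 against 0.52). At equal depth on the log2 scale it was 147.7 in diabetes and 167.1 without it. The difference between the ratios was not tested. On linear counts, diabetic and non-diabetic heart regions lay 4444 apart, diabetic and non-diabetic kidney regions 15850, and non-diabetic kidney and diabetic heart regions 18880. On the log2 scale the order of the first distances turned, at 128.8 for the heart, 103.4 for the kidney and 157.7 between non-diabetic kidney and diabetic heart. On the log2 scale at equal depth these were 126.8, 146.5 and 165.9, with 145.6 among the non-diabetic kidney regions themselves.

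Most organ differences in diabetes were shared with the non-diabetic regions. Of 3760 probes tested in both conditions, 943 were called in diabetes (25.1%) and 1863 without it (49.5%), and 834 (22.2%) were called in both with the same direction, 158 higher in the heart and 676 in the kidney. These are 88.4% of the diabetic and 44.8% of the non-diabetic list. Only 1 probe was called in opposite directions. Without diabetic heart regions 2 and 3 the shared calls numbered 390, or 91.1% of the diabetic list. Of the 943 probes called in diabetes, 923 had the same sign without diabetes, and of the 1863 called without diabetes, 1780 had the same sign in diabetes. The log2 differences of the 2 conditions correlated across the 3760 probes with a Pearson r of 0.864 and a Spearman rho of 0.745, as a description, since probes are not independent replicates.

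**Figure D2:**
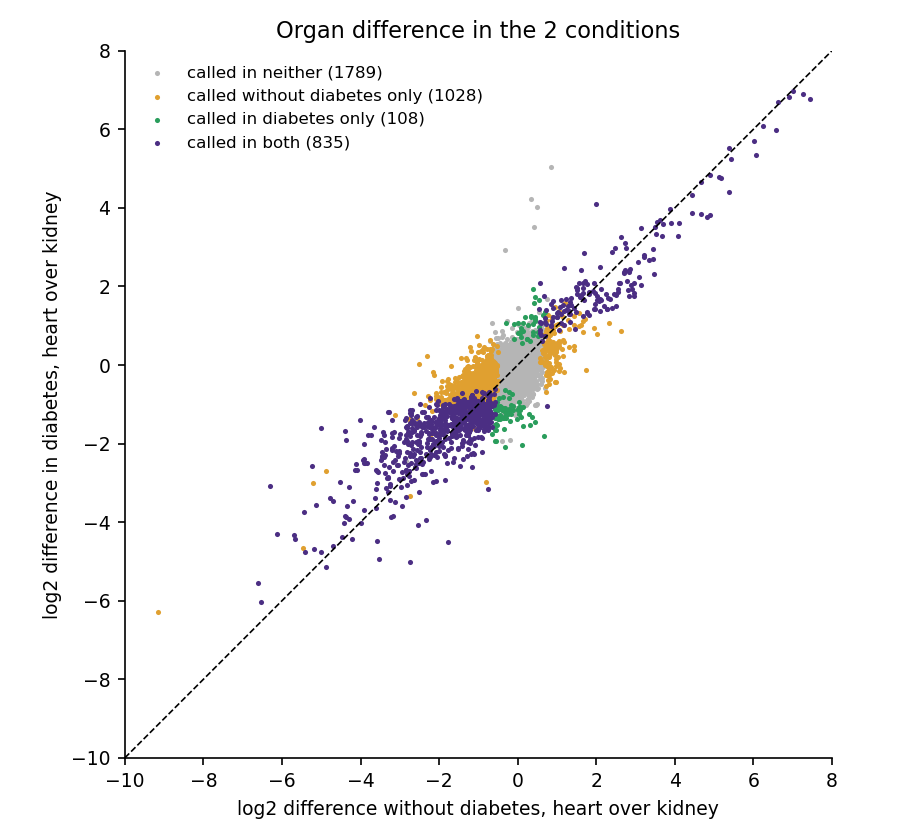
Log2 difference of heart over kidney in diabetic regions (vertical) against that in non-diabetic regions (horizontal), 1 point per probe tested in both, coloured by where it was called, with a dashed line of equality. Most points called in both (835) follow the line, 1028 were called without diabetes only and 108 in diabetes only.

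Probes called in 1 condition alone mostly kept their sign. Of the 108 called in diabetes only, 89 had the same sign without diabetes, with a median absolute log2 difference of 1.15 in diabetes and 0.35 without it. Of the 1028 called without diabetes only, 946 had the same sign in diabetes, with medians of 0.53 in diabetes and 0.9 without. Each list was chosen in its own condition. Over the 3760 probes that passed the count filter in both conditions, the median absolute log2 difference was 0.55 in diabetes and 0.62 without it. They are nearly all of the 3762 tested in diabetes, against 17428 tested without it. Without diabetic heart region 1, 2 or 3 more probes passed the filter, and 6282, 6222 and 5333 were tested in both conditions. Over these the medians were 0.532 and 0.519, 0.52 and 0.515, and 0.57 and 0.556, so their order turned on larger sets of probes. Whether it turns on the same 3760 probes was not tested. Without diabetic kidney region 1, 2 or 3 the medians were 0.578 and 0.657, 0.611 and 0.66, and 0.63 and 0.641. They covered 3563, 3705 and 3614 probes.

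Depth lowers what a shallow comparison can call, and the diabetic heart regions were the shallowest of the 12. All regions were therefore thinned to 115269 counts, the total of the shallowest. Then 519 of 1483 probes (35%) were called in diabetes, 143 higher in the heart and 376 in the kidney, and 967 of 1482 (65.2%) without diabetes, 119 higher in the heart and 848 in the kidney. Over 10 such draws the number ran from 511 to 549 in diabetes and from 939 to 983 without it. The median absolute log2 difference over probes tested in both was 0.73 in diabetes (0.697 to 0.791 over the draws) and 1.0 without it (0.988 to 1.027). At equal depth more than 4-fold kidney calls numbered 121 in diabetes and 304 without, while more than 4-fold heart calls numbered 71 in both. Over the 1483 and 1482 probes that passed the filter at equal depth, the median log2 difference was -0.39 in diabetes and -0.94 without it. At full depth the non-diabetic median was 0.28 over 17428 probes, and -0.36 over the 3218 with at least 10 counts in every region. At full depth and the same scaling, the non-diabetic median thus depends on which probes pass the filter. It also moved with the scaling, to 0.05 with TMM and 0.57 with total counts. The part of the filter in the medians and splits at equal depth was not tested.

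At full depth 5192 of 17428 probes (29.8%) were called between non-diabetic heart and kidney, but their split depended on the scaling. At the 75th percentile 3018 probes (17.3%) were higher in the heart and 2174 (12.5%) in the kidney, with TMM 1260 and 2947, and with total counts 6832 and 1525. The direction of the majority of small non-diabetic differences is thus not settled by these data, whereas more than 4-fold calls were 105 in the heart and 342 in the kidney at the 75th percentile.

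**Figure D3:**
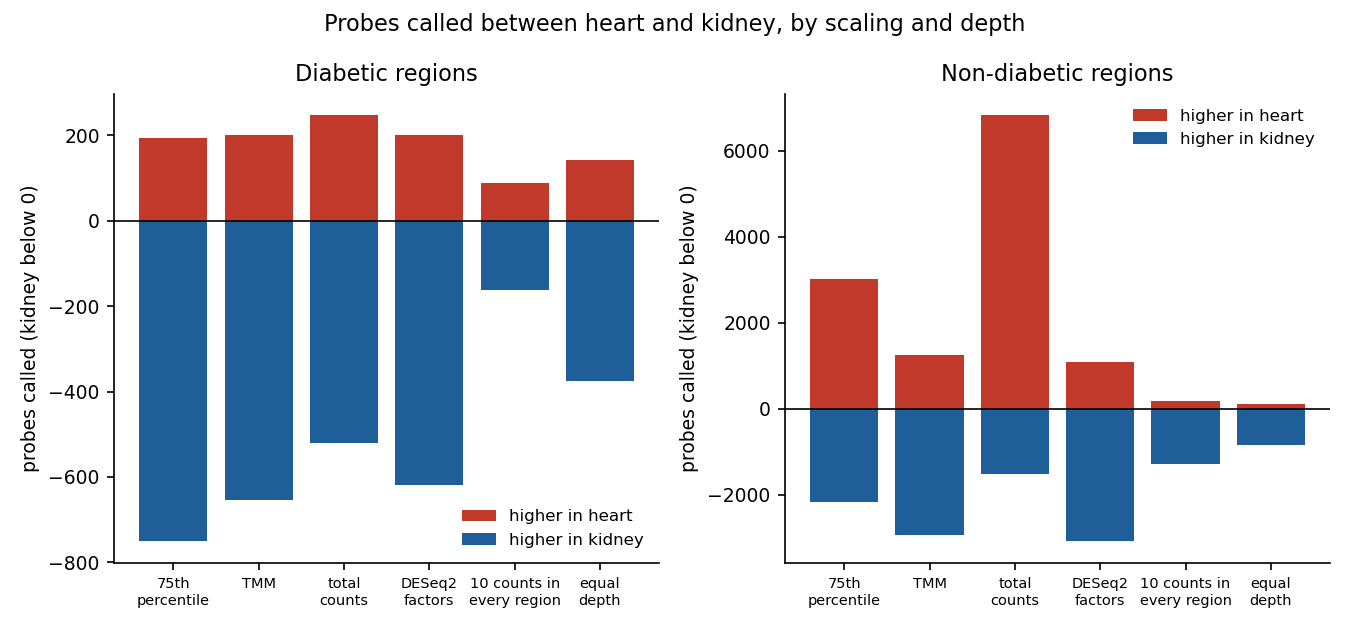
Number of probes called between heart and kidney at an adjusted p under 0.05, in diabetic (left) and non-diabetic regions (right), for 6 settings, with probes higher in the heart as bars above 0 and probes higher in the kidney as bars below 0. In diabetes the kidney bar is the longer one in each setting (751 against 193 at the 75th percentile), while in non-diabetic regions the longer bar changes with the scaling.

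Where the diabetic regions stood between the non-diabetic organs was measured on probes chosen in the non-diabetic regions alone, those called there with more than a 4-fold difference. A position of 0 is the non-diabetic kidney mean and 1 the non-diabetic heart mean of a probe, on log2(scaled count + 1). On the 342 kidney probes the diabetic kidney regions had median positions of 0.307, 0.364 and 0.275 (mean 0.315 ± 0.045, SD, n = 3), that is, displaced from the non-diabetic kidney towards the heart. The diabetic heart regions were at 1.029, 1.029 and 1.028. Of the 342 probes, 261, 230 and 276 were nearer to the kidney in diabetic kidney regions 1 to 3 (76.3%, 67.3% and 80.7%). On the 105 heart probes the diabetic heart regions were at 0.909, 0.962 and 0.905 and the diabetic kidney regions at 0.053, 0.098 and 0.104. Both lists were chosen for their size in the non-diabetic regions, and the part of that choice in these positions was not tested.

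**Figure D4:**
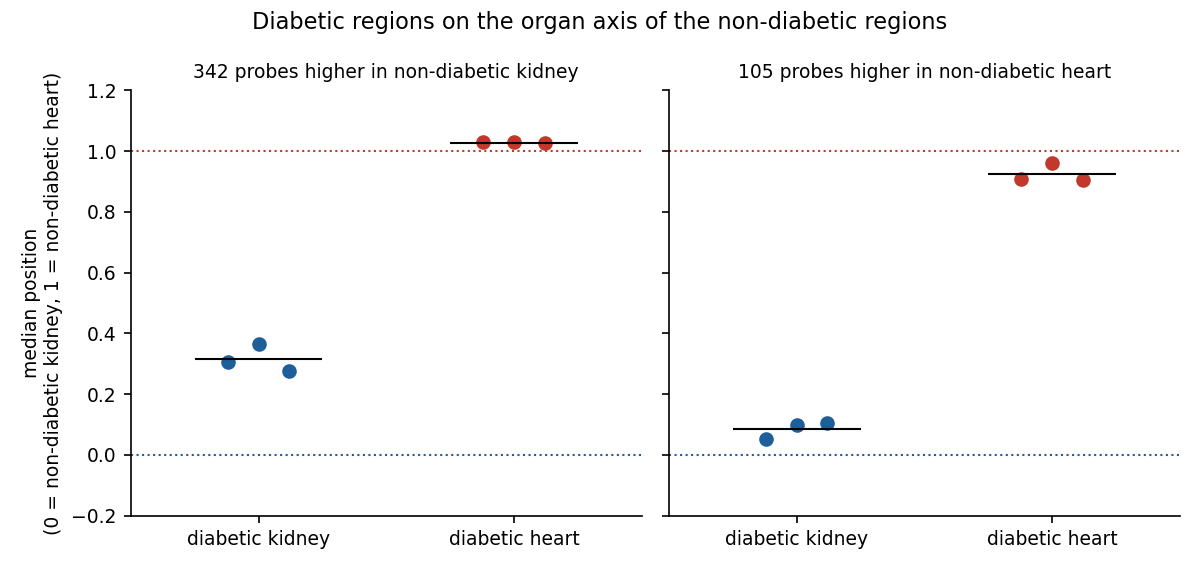
Median position of each diabetic region between the non-diabetic kidney (0) and the non-diabetic heart (1), 1 point per region, on 342 probes higher in the non-diabetic kidney and 105 higher in the non-diabetic heart. The diabetic kidney regions lie between 0.275 and 0.364 on the kidney probes and between 0.053 and 0.104 on the heart probes, and the diabetic heart regions lie near 1 on both.

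The displacement of the kidney regions was also seen when counts were scaled by totals (0.23 to 0.307), by median ratios (0.302 to 0.354) and at equal depth (0.233 to 0.37). In the reverse view, on the 175 kidney probes chosen in diabetes with more than a 4-fold difference, the non-diabetic kidney regions lay at -0.242, -0.122 and -0.272, beyond the diabetic kidney mean. On the same probes the non-diabetic heart regions lay at 0.868, 0.864 and 0.848, short of the diabetic heart mean. On the 68 heart probes chosen in diabetes the non-diabetic heart regions lay at 0.994 to 1.119. The 1000 most abundant probes held 34.654% to 37.651% of the counts of diabetic and 44.092% to 46.927% of those of non-diabetic kidney regions. The part of this evenness of the counts in the displacement was not tested.

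The change of the organ difference with diabetes was itself tested probe by probe. Of 13332 probes, 18 (0.135%) passed an adjusted p under 0.05 in edgeR's interaction contrast over the 12 regions. At an unadjusted p under 0.05, 384 had a larger and 825 a smaller log2 difference of heart over kidney in diabetes (9.07% in all), but this split turned with the scaling. It was 837 larger and 299 smaller with TMM, 1026 and 234 with DESeq2's size factors, and 226 and 23 at equal depth, as the median change over all probes tested moved from -0.17 to 0.09, 0.16 and 0.34. The median standard error of the contrast was 0.56, so a 2-fold change of the organ difference was within about 2 standard errors. Of the 18, 16 were higher in the kidney without diabetes. One of these had means of 18.8 scaled counts in diabetic heart and 58.8 in diabetic kidney, against 18.4 and 577 without diabetes, so its log2 organ difference went from -5.0 to -1.6 (change 3.39, standard error 0.44, adjusted p = 1.12e-05 from edgeR). Another had 51.2 and 43.1 in diabetic heart and kidney, against 30 and 147 without diabetes (change 2.54, standard error 0.35, adjusted p = 3.38e-06 from edgeR), and its organ difference was 0.24 in diabetes. Of the 18 probes 9 were called between the organs in diabetes and 18 without it, and the organ difference was smaller in size in diabetes for 16. The number called was 4 without diabetic heart regions 2 and 3, and it moved with the libraries and the scaling, from 8 without diabetic heart region 1 to 43 without diabetic kidney region 2, and 66 with TMM.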

How the data were processed

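Counts were deposited by the authors as 1 list per region. GeoMx NGS Pipeline 2.3.4, per the file headers, matched the reads to barcodes of the probes and collapsed those with the same molecular identifier, and the deposited counts are neither filtered nor scaled. A probe that is not listed was set to 0, and 20185 probes had a count in at least 1 of the 6 diabetic regions.

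Heart and kidney were compared with edgeR 4.0.16 in R 4.3.3 (quasi-likelihood, robust), with upper-quartile factors over all probes at 0.75, the filter at a minimum of 10 counts, and Benjamini-Hochberg adjusted p under 0.05. Each condition was fitted on its 6 regions and the interaction on 12. Scaled counts are counts divided by the 75th percentile of the region and multiplied by the geometric mean of these over the 12 regions. The fits were tested on simulated data. Replicates differed beyond sampling noise (chi-square over its degrees of freedom 1.11 to 3.64), so each was counted as a library of its own. DESeq2 1.42.0 and the methods' t-test were alternatives. Named are the 2 probes with the smallest p in each direction in diabetes. Regions, probe lists and tests were chosen with earlier results of these data known. Marker lists were not used, since no probe has a symbol. Intervals and limits from counts cover counting error only.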

Additional observations from a re-analysis of the deposited data

Results flagged for a closer look

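The organ difference itself differed between diabetic and non-diabetic regions, by the interaction contrast of edgeR's quasi-likelihood test over 12 regions, for 18 of 13332 probes. In 17 of them the log2 difference of heart over kidney was higher in diabetes, by a median of 2.53, and in 1 it was lower, by -3.52. That 1 probe had means of 2.07 scaled counts in diabetic heart and 11.4 in diabetic kidney, against 11.2 and 4.79 without diabetes, so its organ order turned, at low levels. In 8 of the 18 the sign of the organ difference was not the same in the 2 conditions, but in 7 of these 8 the difference in diabetes was only 0.02 to 0.36 on the log2 scale, and 0 of the 8 were called between the organs in diabetes (5 were tested there). Of the 17, 1 was higher in the heart in both conditions and more so in diabetes, with means of 128 and 7.25 scaled counts in diabetic heart and kidney and 25.2 and 6.02 without diabetes (change 2.11, standard error 0.49, adjusted p = 0.0344 from edgeR).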

How the results depend on the processing

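The 4 named probes were chosen for the smallest p in the diabetic fit, so refits of the same diabetic regions are not independent support. By edgeR and DESeq2 they kept their direction and their side of the threshold in 135 of 135 alternative values, with adjusted p of at most 1.98e-08. By the methods' t-test they passed unadjusted, and after adjustment 4 of 4 passed without diabetes (0.0198 to 0.0436) and 0 of 4 in diabetes (0.0834 to 0.193). With at least 10 counts in every region 3 of the 4 were not tested in diabetes and 2 without it. The 944 probes called in diabetes became 526 by DESeq2's test, 553 against 1.5-fold, 519 at equal depth, 251 of 671 with at least 10 counts in every region, 2102 by the methods' t-test and 8 of these after adjustment, 430 without the 2 heart regions whose labels do not name MECs (chosen after seeing the data), and 617 to 1175 with each region left out (617 without diabetic heart region 1). The 5192 without diabetes became 8357 by total counts, 2378 by DESeq2's test, 1457 with at least 10 counts in every region, 967 at equal depth, 1509 against 1.5-fold, 725 by the adjusted t-test, and 3140 to 5397 with each region left out (3140 and 3326 without non-diabetic heart regions 3 and 1). The 18 interaction calls became 66 by TMM, 84 by DESeq2's size factors, 130 by its test, 38 with at least 10 counts in every region, 6 in 1 model of 24 regions, 30 by an interpolated percentile and 4 without the 2 heart regions (the last 2 chosen after seeing the data). With each region left out they were 8 to 43. They were 8, 9 and 11 without diabetic heart regions 1, 2 and 3, and 11 without non-diabetic heart region 1. Without diabetic kidney regions 2 and 3 they were 43 and 32, and without any other single region 12 to 27. The 834 shared calls became 198 with at least 10 counts in every region, 388 at equal depth, 390 without the 2 heart regions and 564 to 997 with each region left out (chosen after seeing the data). The median absolute difference in diabetes was 0.487 by total counts, 0.731 at equal depth and 0.52 to 0.63 with each region left out. Without diabetes it was 0.805 by TMM, 0.53 by total counts, 1.0 at equal depth and 0.601 to 0.652. With each region left out the ratio of distances was 1.556 to 2.636 in diabetes and 2.227 to 5.042 without it. Probes in 1 organ only were 4 at equal depth and 0 at a sum of at least 20. The cause of these changes was not tested, beyond the different probes or regions that a setting leaves.

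Same-numbered heart and kidney regions did not deviate together (correlations 0.025, -0.001 and -0.051 in diabetes). Differently numbered pairs gave -0.042 to 0.044, so these values cannot tell whether same-numbered regions come from the same mouse. With the replicate number as a block, 924 probes were called in diabetes, 5017 without it and 29 in the interaction.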
